A study of Caenorhabditis elegans with 16 samples.

Results

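The genes described here are the MATH and BTB-MATH genes of *Caenorhabditis elegans*, chosen as every gene of the deposited count table whose symbol is math- or bath- followed by a number. There are 92 of them among 46904 genes counted, 49 with a math symbol and 43 with a bath symbol. Their RNA was counted in whole L4 larvae of 4 genotypes, with 4 libraries each, labelled as biological replicates 1 to 4. The *pals-25(jy111)* mutants carry a CRISPR/Cas9-made premature stop near the end of PALS-25, a gain-of-function allele. The *pals-22(jy3)* mutants carry a splice mutation that removes the function of PALS-22. The *pals-22(jy3) pals-25(jy9)* mutants carry this allele together with the loss-of-function missense allele *pals-25(jy9)* and are called double mutants, and the WT animals are the N2 strain. Each library pools synchronized animals of 1 strain per genotype, grown on *E. coli* OP50-1 at 20°C, so that genotype and strain cannot be told apart. Animals grew for 44 h, except the *pals-22(jy3)* mutants, which grew for 48 h. Growth time and genotype cannot be told apart in comparisons with *pals-22(jy3)* mutants, and p-values measure the spread between the 4 libraries of a group.

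The MATH (meprin and TRAF homology) domain binds other proteins, and in BTB-MATH proteins it stands beside a BTB domain that binds Cullin 3. MEL-26, the best known of them, is a substrate adaptor of a Cullin 3 ubiquitin ligase, which marks proteins for degradation. The family is greatly expanded in *C. elegans*, and the role of most members is not known. PALS-22 represses and PALS-25 activates the intracellular pathogen response (IPR), a set of genes induced by microsporidia and the Orsay virus. The same pair of proteins controls genes of the oomycete recognition response (ORR), which is induced by oomycete infection of the epidermis or by an oomycete extract.

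The libraries held 14028579 to 34151410 counted reads. Values are CPM, counts scaled to library totals with TMM factors over the 16 libraries. *pals-22* averaged 9.57 ± 0.77 CPM in *pals-25(jy111)* mutants, 21.2 ± 3.29 in *pals-22(jy3)* mutants, 6.30 ± 0.759 in double mutants and 4.23 ± 0.71 in WT animals (SD, n = 4 each). These alleles change a splice site or a codon, so RNA levels do not check them. None of the intestine, epidermis, muscle, neuron, sperm or oocyte and adult markers looked for was at 0 in any group. The 6 oocyte and adult markers summed to 1516 to 3198 CPM in *pals-22(jy3)* libraries, 548 to 854 CPM in *pals-25(jy111)* libraries and 631 to 966 CPM in WT libraries. Library 4 of the double mutants stood apart, with 71.2 CPM for these markers, against 435 to 852 CPM in the other 3, and 1252 CPM for the 6 epidermis markers, against 2704 to 5508 CPM.

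The family is concentrated on the left arm of chromosome II. Of the 92 genes, 79 lie on chromosome II (46 math and 33 bath), 5 on I, 3 on III, 1 on IV, 3 on V and 1 on X, in the Ensembl annotation of WBcel235. With neighbours joined when they start within 50 kb of each other, 74 members fall into 6 clusters. The largest cluster, at chrII:1763372-2049175, spans 285.8 kb and holds 38 math and 14 bath genes, running from *math-28* to *bath-14*. Upstream of it, the cluster at chrII:1577378-1606179 holds *math-38*, *bath-46*, *bath-26*, *bath-47* and *bath-33*. Downstream of it lie clusters of 4 math genes (*math-42*, *math-35*, *math-37* and *math-18*), of 3 bath genes (*bath-12*, *bath-13* and *bath-18*) and of 8 bath genes (*bath-28* to *bath-8*). The sixth cluster is the pair *bath-34* and *bath-35* on chromosome I. The annotation calls 73 members protein coding and 19 pseudogenes.

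**Figure D1:**
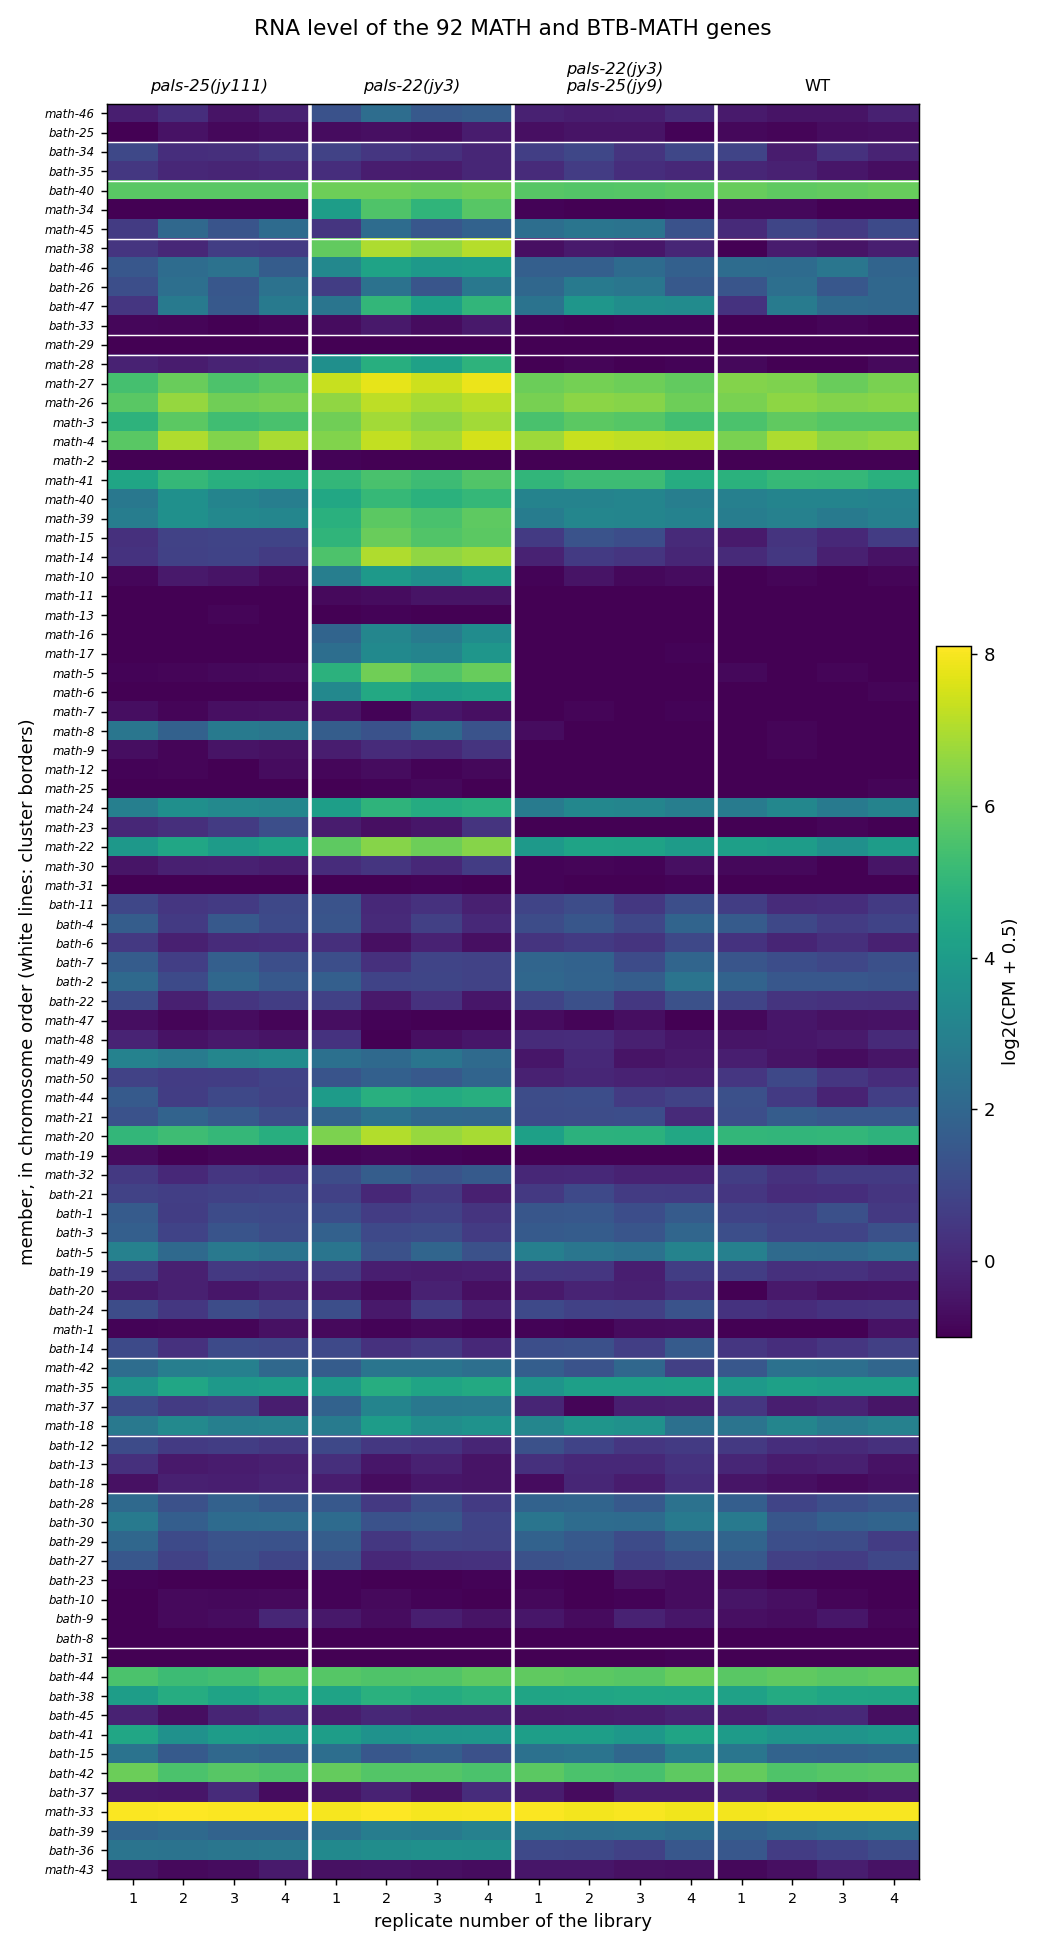
Levels of the members in the 16 libraries, as log2(CPM + 0.5), with members in chromosome order from top to bottom, libraries 1 to 4 of each genotype from left to right, and thin white lines at cluster borders. A block of math genes in the largest cluster on chromosome II is high in the 4 *pals-22(jy3)* libraries, while most members on other chromosomes differ little between groups, with exceptions such as *bath-36*.

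Many members were weakly transcribed. A mean of at least 0.5 CPM was reached by 57 of 92 members in *pals-25(jy111)* mutants, 63 in *pals-22(jy3)* mutants, 51 in double mutants and 50 in WT animals. This difference lay with the math genes, of which 26 of 49 reached it in *pals-25(jy111)* mutants, 35 in *pals-22(jy3)* mutants, 19 in double mutants and 20 in WT animals. Of the 43 bath genes, 31 reached it in *pals-25(jy111)* mutants, 28 in *pals-22(jy3)* mutants, 32 in double mutants and 30 in WT animals. No read was counted for *math-29* and *bath-8*, both pseudogenes, and 14 further members had 1 to 50 counts over all libraries.

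The summed level showed the same split of the family. The 49 math genes together averaged 694 ± 95.6 CPM in *pals-25(jy111)* mutants, 1635 ± 351 CPM in *pals-22(jy3)* mutants, 728 ± 60.8 CPM in double mutants and 706 ± 43.1 CPM in WT animals (SD, n = 4 each). The 43 bath genes averaged 250.4 ± 20.2 CPM, 294 ± 11.1 CPM, 274 ± 23.1 CPM and 256 ± 13.3 CPM in the same order of genotypes. All 4 *pals-22(jy3)* libraries lay above every other library in the math sum.

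The highest level per length in WT was that of *math-33* (chrV:11113907-11118824), the ortholog of the deubiquitinase USP7. It had 63.2 ± 0.73 CPM per kb of exon in *pals-25(jy111)* mutants, 62.02 ± 2.28 in *pals-22(jy3)* mutants, 60.2 ± 2.37 in double mutants and 60.7 ± 1.19 in WT animals (SD, n = 4 each). The next members were *bath-40* at 36.7 ± 1.85, *math-4* at 33.6 ± 7.005, *math-26* at 33.5 ± 2.88 and *bath-42* at 31.7 ± 3.29 CPM per kb in WT. Neighbours among these 4 differed by less than the larger of their SDs, while *math-33* lay above all of them by more. The level of *math-33* is uncertain to the extent that reads were counted without strand, since 59 bases of it overlap *scb-1* on the opposite strand, and that of *math-26* because it overlaps *math-3* over 2858 bases of the same strand.

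These abundant members showed small or no detected changes. *math-33* had 267, 269.7, 262 and 266 CPM in *pals-25(jy111)* libraries, 255, 275, 256 and 259 in *pals-22(jy3)* libraries, 265, 249, 257 and 242 in double-mutant libraries and 249, 256, 261 and 256 in WT libraries. The lowest *pals-25(jy111)* value (262 CPM) exceeded the highest WT value (261 CPM), and all other pairs of groups overlapped. With the replicate number as a block, the *pals-25(jy111)* difference from WT did not pass the test (log2 fold change 0.05, adjusted p = 0.55). Without a block, the log2 fold change of *pals-22(jy3)* mutants against WT was -0.06 (adjusted p = 0.45). *bath-42* likewise had a log2 fold change of -0.03 in *pals-25(jy111)* mutants against WT (adjusted p = 0.959) and -0.14 in *pals-22(jy3)* mutants against WT (adjusted p = 0.473). *bath-40* in *pals-22(jy3)* mutants exceeded its level in *pals-25(jy111)* mutants (log2 fold change 0.23, SE 0.06, adjusted p = 0.0322) and in double mutants (log2 fold change 0.27, SE 0.06, adjusted p = 0.015), and did not pass the test against WT (log2 fold change 0.05, SE 0.06, adjusted p = 0.613). *math-4* ranged from 53.99 to 129.7 CPM in *pals-25(jy111)* libraries, and its log2 fold change of 0.33 in *pals-22(jy3)* mutants against WT had an adjusted p of 0.408.

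In *pals-25(jy111)* mutants against WT, the comparison that asks what the gain-of-function allele changes, 4 members were higher and 3 of these were upregulated. Higher and lower mean an adjusted p under 0.05 in edgeR's quasi-likelihood test, and upregulated adds a log2 fold change above 2, the threshold of the study. Of 14671 genes tested, 2.33% were higher, 1.41% lower and 1.17% upregulated, and 55 members were among those tested. The 3 upregulated members, *math-8*, *math-23* and *math-49*, all lie in the largest cluster. All 3 passed the filter on low counts through the *pals-25(jy111)* libraries alone, so they had to differ and their separation from WT was set by the filter. The median log2 fold change was 0.21 over the 55 members tested and 0.02 over all genes tested. Among members with too few reads for the filter, *math-28* had 43 reads against 3, a ratio of 12.1 with an exact interval of 3.87 to 61. *math-9* had 14 against 1, a ratio of 11.8 with an interval of 1.80 to 500. *math-7* had 13 reads against none, a ratio of at least 3.66. The intervals of *math-5*, *math-19* and *bath-33* spanned a ratio of 1.

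*math-8* (chrII:1887209-1889171) had 5.53, 3.08, 6.07 and 5.44 CPM in *pals-25(jy111)* libraries, against 0, 0.0384, 0 and 0 CPM in WT libraries. Only 1 read was counted in WT, against 535 in *pals-25(jy111)* mutants, a ratio of 452 with a 95% interval of 80.7 to 17873 in CPM. The test gave an adjusted p of 5.41e-05, and all 4 *pals-25(jy111)* libraries exceeded the WT libraries, a separation set by the filter. These exact intervals cover counting error only.

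*math-23* (chrII:1902281-1904446) had 0.503, 0.68, 1.01 and 1.77 CPM in *pals-25(jy111)* libraries and 0, 0, 0.0403 and 0 CPM in WT libraries. The groups did not overlap, which the filter had set, and the 101 reads against 1 gave a ratio of 85.3 with a 95% interval of 14.96 to 3401. The adjusted p was 0.00433, and 0.0545 without WT library 3, the only WT library with a read.

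*math-49* (chrII:1953587-1955668) was the most abundant of the 3, with 7.73, 6.35, 8.64 and 10.03 CPM in *pals-25(jy111)* libraries and 0.352, 0.192, 0.121 and 0.217 CPM in WT libraries. It was higher (log2 fold change 5.25, SE 0.30, adjusted p = 1.98e-05), with the lack of overlap again set by the filter.

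The fourth was a BTB-MATH gene on chromosome V, *bath-36* (chrV:15187888-15189588), named after its values were seen. It had 5.12, 4.99, 5.52 and 5.72 CPM in *pals-25(jy111)* libraries and 2.25, 1.04, 1.29 and 1.65 CPM in WT libraries. The difference was 1.79 on the log2 scale (SE 0.24, adjusted p = 0.00439), below the threshold for upregulation and without overlap.

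No member was lower in *pals-25(jy111)* mutants than in WT by edgeR, with 3 at an unadjusted p under 0.05 (6.90% of all genes tested), and limma-voom called 0 and DESeq2 called 2. With the replicate number as a block, 6 members were higher and 2 lower, where 5.17% of all genes tested were higher and 4.61% lower. The block added *math-45* (log2 fold change 1.24, adjusted p = 0.00784, against 0.278 without it) and *math-37* (1.15, 0.0389, against 0.38). On the lower side it called *math-27* (-0.57, 0.0205, against 0.0901) and *bath-44* (-0.37, 0.0376, against 0.121). Taking each member, all *pals-25(jy111)* libraries exceeded those of WT in 7 of the 55 members tested and lay below them in 2, against 5.88% and 4.66% of all genes tested. The 7 include *math-8*, *math-23* and *math-49*, whose separation was set by the filter.

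Loss of the repressor was addressed by *pals-22(jy3)* mutants against WT, and here the family responded broadly. Of 63 members tested, 29 were higher, 0 lower and 20 upregulated, where 9.97% of the 14803 genes tested were higher, 11.3% lower and 3.10% upregulated. Nearly all of this lay with the math genes, of which 26 of 34 tested were higher and 18 upregulated, with a median log2 fold change of 2.42. Of 29 bath genes tested, 3 were higher and 2 upregulated, with a median of -0.10, and the median over all genes was -0.09. By edgeR 0 members were lower (1 at an unadjusted p under 0.05, a threshold that 17.6% of all genes tested passed on the lower side), and DESeq2 and limma-voom also called 0. In the largest cluster 22 of 25 math genes tested were higher and none of 12 bath genes tested was, at log2 fold changes of -0.71 to 0.19. Of the 29 higher members, 12 passed the filter through the *pals-22(jy3)* libraries alone and so had to differ. They were the math genes *math-5*, *math-6*, *math-8*, *math-10*, *math-16*, *math-17*, *math-28*, *math-30*, *math-34*, *math-38*, *math-46* and *math-49*. The math counts and median include them and so were partly set by the filter, as was the math count of the largest cluster. In 29 members the *pals-22(jy3)* libraries all lay above those of WT and in 0 all below, against 16.6% and 10.1% of all genes tested. These 29 include the 12 that had to differ. Over all genes, edgeR called 1476 higher and 1675 lower, and DESeq2 called 2283 and 1677. The summed level of the oocyte and adult markers in the *pals-22(jy3)* libraries also lay above that in WT. Of these 6 markers, 2 were higher and the rest did not pass the test. Of the 5 intestine markers 2 were higher and 1 lower, and of the 6 epidermis markers 1 was lower. Their part in the differences of the members was not tested.

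**Figure D2:**
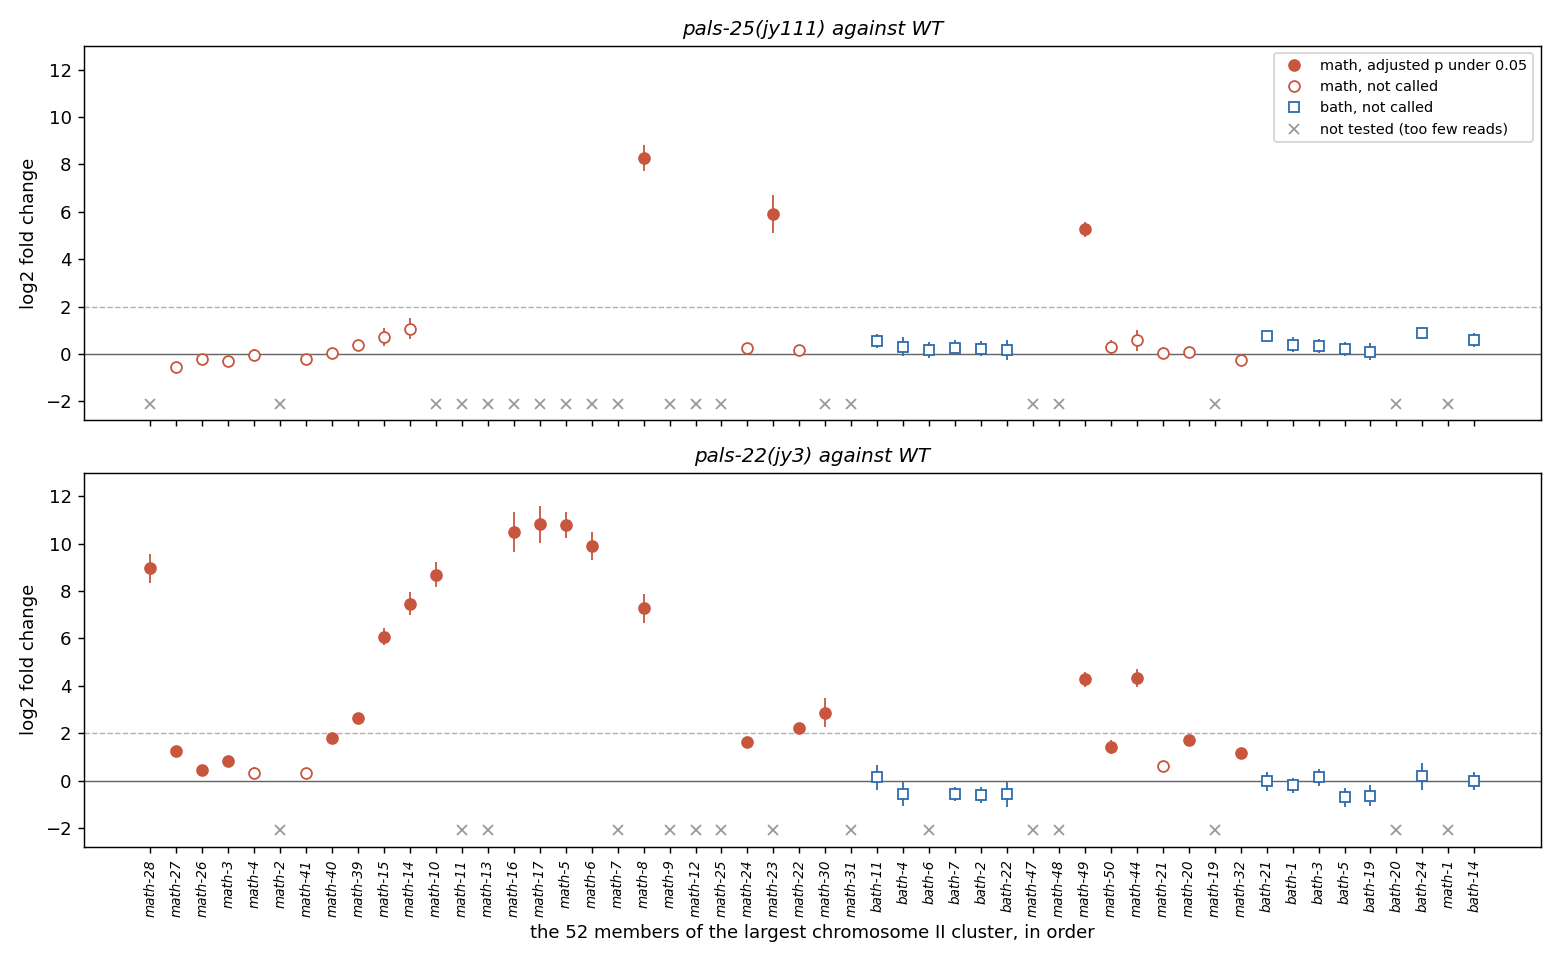
Fitted log2 fold change of the 52 members of the largest chromosome II cluster, in chromosome order, in *pals-25(jy111)* mutants against WT (top) and *pals-22(jy3)* mutants against WT (bottom), with bars of 1 SE, filled symbols for adjusted p under 0.05, a dashed line at the threshold of 2 and crosses for members with too few reads. Values of members with hardly a read in WT depend on the prior count of the fit. The math genes of the largest cluster run from 0.32 to 10.81 in *pals-22(jy3)* mutants, and the bath genes of the same cluster from -0.71 to 0.19.

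The members with the largest changes were nearly silent in WT. *math-5* (chrII:1881611-1882805) had 28.1, 69.4, 49.7 and 63.2 CPM in *pals-22(jy3)* libraries and 0.0704, 0, 0.0403 and 0 CPM in WT libraries. Its 6296 reads against 2 gave a ratio of 2270 with a 95% interval of 628 to 18746 (adjusted p = 3.98e-06). The groups did not overlap, and *pals-22(jy3)* library 1 was the lowest of its group, as it was for 26 of the 29 members that were higher.

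*math-17* (chrII:1879588-1880708), annotated as a pseudogene, had 4.45, 9.57, 8.06 and 13.2 CPM in *pals-22(jy3)* libraries and no read in WT libraries, so it was at least 249.9-fold higher, with the WT group set to its floor of 3 counts (adjusted p = 0.000635). Its neighbour *math-16* (chrII:1877579-1878763) had 3.28, 8.46, 6.45 and 10.2 CPM in *pals-22(jy3)* libraries and also no read in WT libraries, and was at least 202-fold higher (adjusted p = 0.000911). Neither had a read in *pals-25(jy111)* libraries, and in double mutants *math-17* had 1 read and *math-16* none.

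*math-6* (chrII:1883596-1884735) had 8.96, 22.2, 16.5 and 18.2 CPM in *pals-22(jy3)* libraries and 0, 0, 0 and 0.0433 CPM in WT libraries, a ratio of 1423 with a 95% interval of 255 to 56244 with an adjusted p of 1.02e-05. *math-34* (chrII:1028972-1033665), which stands alone upstream of the clusters, had 16.4, 48.2, 30.9 and 53.6 CPM in *pals-22(jy3)* libraries and 0.0704, 0.0768, 0 and 0 CPM in WT libraries, a ratio of 1062 with a 95% interval of 363 to 5151 (adjusted p = 2.65e-05). Neither gene overlapped between the groups.

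*math-28* (chrII:1763372-1766555), the first gene of the largest cluster, had 10.98, 25.8, 18.2 and 28.9 CPM in *pals-22(jy3)* libraries and 0.0704, 0, 0 and 0.0867 CPM in WT libraries, a ratio of 599 with a 95% interval of 205 to 2907 (adjusted p = 2.61e-05). *math-10* (chrII:1871542-1873348) had 6.91, 14.4, 10.98 and 16.1 CPM in *pals-22(jy3)* libraries and 0, 0.0384, 0 and 0.0433 CPM in WT libraries, a ratio of 519.8 with a 95% interval of 144 to 4297 (adjusted p = 1.32e-05). For both, the lowest *pals-22(jy3)* library exceeded the highest WT library.

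Strong increases were also measured in *math-38*, *math-14* and *math-15*. *math-38* (chrII:1577378-1579986) had 59.8, 128, 99.8 and 135 CPM in *pals-22(jy3)* libraries and 0, 0.307, 0.201 and 0.347 CPM in WT libraries (log2 fold change 8.67, SE 0.45, adjusted p = 4.92e-06). *math-14* (chrII:1869420-1870805) had 47.1, 129.9, 95.1 and 108 CPM in *pals-22(jy3)* libraries and 0.564, 0.884, 0.362 and 0.173 CPM in WT libraries (log2 fold change 7.46, SE 0.48, adjusted p = 1.79e-05). *math-15* (chrII:1866381-1867894) had 30.8, 64.7, 49.5 and 56.2 CPM in *pals-22(jy3)* libraries and 0.282, 0.807, 0.523 and 1.04 CPM in WT libraries (log2 fold change 6.07, SE 0.37, adjusted p = 1.25e-05). None of the 3 overlapped between the groups.

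The members raised in *pals-25(jy111)* mutants were raised in *pals-22(jy3)* mutants as well, apart from *math-23*, which was not tested for lack of reads. *math-8* had 2.73, 1.95, 3.80 and 2.02 CPM in *pals-22(jy3)* libraries, 317 reads against 1 in WT, a ratio of 229 with a 95% interval of 40.7 to 9056 (adjusted p = 8.68e-05). *math-49* had 4.67, 3.78, 5.26 and 3.92 CPM in *pals-22(jy3)* libraries and was higher than in WT (log2 fold change 4.27, SE 0.30, adjusted p = 3.2e-05), as was *bath-36* with 9.42, 10.5, 11.52 and 10.96 CPM (log2 fold change 2.69, SE 0.23, adjusted p = 9.15e-05). *math-23* had 0.3, 0.15, 0.23 and 0.799 CPM in *pals-22(jy3)* libraries, 43 reads in all, and did not pass the filter. Against 1 read in WT, this was a ratio of 31 with a 95% interval of 5.28 to 1253.

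Further strong changes, among the 15 largest, were those of *math-44* (15.6, 26.4, 23.2 and 25.4 CPM in *pals-22(jy3)* libraries and 1.83, 0.961, 0.443 and 1.13 CPM in WT libraries; log2 fold change 4.33, SE 0.37, adjusted p = 8.96e-05) and of *math-37* (3.14, 8.22, 5.76 and 5.86 CPM in *pals-22(jy3)* libraries and 0.845, 0.346, 0.443 and 0.217 CPM in WT libraries; log2 fold change 3.59, SE 0.43, adjusted p = 0.000699). *math-46*, on chromosome I, had 1.94, 4.29, 2.42 and 2.70 CPM in *pals-22(jy3)* libraries and 0.282, 0.192, 0.201 and 0.39 CPM in WT libraries (log2 fold change 3.30, SE 0.35, adjusted p = 0.000335). All 3 were separated from WT in every library.

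A second kind of response was a moderate one in genes already transcribed in WT, which are named here after their values were seen. *math-27*, a pseudogene, had 163, 216, 169.5 and 228 CPM in *pals-22(jy3)* libraries and 84.2, 81.6, 64.7 and 77.6 CPM in WT libraries (log2 fold change 1.24, adjusted p = 0.000226). *math-20* had 109 ± 23.1 CPM in *pals-22(jy3)* mutants and 31 ± 1.53 CPM in WT animals (log2 fold change 1.72, adjusted p = 6.25e-05). *math-22* had 74.99 ± 14.6 and 15.2 ± 2.60 CPM in the same order (log2 fold change 2.21, adjusted p = 4.57e-05). The higher genes also included *math-24*, *math-39* and *math-40*, at log2 fold changes of 1.61, 2.63 and 1.79. *math-3* (0.82) and *math-26* (0.45, adjusted p = 0.0407) overlap on the same strand, so how the shared reads were assigned bears on both changes. The *math-26* call was lost without any WT library and without *pals-22(jy3)* library 2 or 4 (adjusted p up to 0.1).

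Other math genes had few reads. *math-30*, a pseudogene, had 0.601, 0.81, 0.537 and 1.03 CPM in *pals-22(jy3)* libraries and 0.0704, 0.0768, 0 and 0.217 CPM in WT libraries (log2 fold change 2.86, SE 0.61, adjusted p = 0.0112). *math-9*, at the end of the reverse-strand genes around *math-8*, had 66 reads in *pals-22(jy3)* mutants and 1 in WT, too few for the filter, a ratio of 47.6 with a 95% interval of 8.25 to 1908. *math-7* and the pseudogene *math-12* had 18 and 9 reads in *pals-22(jy3)* mutants and none in WT, ratios of at least 4.33 and 2.16.

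The 8 math genes tested that did not pass the test included the abundant *math-4*, *math-33* and *math-41*. *math-41* had 40.8 ± 7.34 CPM in *pals-22(jy3)* mutants and 30.5 ± 3.29 CPM in WT animals (log2 fold change 0.32, adjusted p = 0.131). *math-42* and *math-35*, of the cluster downstream of the largest one, had log2 fold changes of 0.12 (adjusted p = 0.8) and 0.22 (0.382), beside 3.59 for their neighbour *math-37*.

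Among the bath genes, *bath-36*, *bath-46* and *bath-47* were higher. *bath-46* had 9.07, 18.96, 14.8 and 15.3 CPM in *pals-22(jy3)* libraries and 4.16, 4.07, 5.47 and 3.29 CPM in WT libraries (log2 fold change 1.67, SE 0.24, adjusted p = 0.00172). *bath-47*, in the same small cluster, had 5.24, 32.1, 17.2 and 31.2 CPM in *pals-22(jy3)* libraries and 0.775, 6.38, 3.82 and 3.60 CPM in WT libraries. Its lowest *pals-22(jy3)* value lay below the highest WT value, and its call (log2 fold change 2.41, SE 0.67, adjusted p = 0.0361) was lost without WT library 3 or 4 or *pals-22(jy3)* library 2, 3 or 4 (adjusted p up to 0.0984). *bath-46* overlaps *bath-26* by 28 bases and *bath-47* overlaps *bath-33* by 22 bases, on opposite strands.

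Several transcribed bath genes outside the clusters did not pass the test. *bath-38* had 24.1 ± 3.88 CPM in *pals-22(jy3)* mutants and 20.1 ± 2.07 CPM in WT animals (log2 fold change 0.16, adjusted p = 0.443). *bath-41* had 13.5 ± 1.78 CPM in *pals-22(jy3)* mutants and 13.7 ± 1.35 CPM in WT animals (log2 fold change -0.10, adjusted p = 0.608). *bath-15*, on chromosome III, had 2.85 ± 1.12 CPM in *pals-22(jy3)* mutants and 3.73 ± 1.13 CPM in WT animals (log2 fold change -0.46, adjusted p = 0.386).

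With the replicate block the counts were 33 higher and 4 lower of 63, where 14.4% of all genes tested were higher and 20.4% lower, so that the lower members were fewer than that share. The added higher members were *math-45* (adjusted p = 0.0118), *math-21* (0.0245), *math-18* (0.012) and *bath-39* (0.0242). The lower ones were *bath-2* (log2 fold change -0.71, adjusted p = 0.0397), *bath-5* (-0.81, 0.0353), *bath-27* (-0.81, 0.0417) and *bath-44* (-0.21, 0.0467). Without *pals-22(jy3)* library 1, a fit without the block gave 37 higher and 4 lower (*bath-2*, *bath-5*, *bath-19* and *bath-27*), beside 17.2% and 13.3% of all genes tested.

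Neighbouring genes inside the largest cluster differed in which of the 2 activated genotypes had their reads. Between 1866381 and 1890782 on chromosome II lie *math-15*, *math-14* and *math-10* on the forward strand, then *math-16*, *math-17*, *math-5*, *math-6*, *math-7*, *math-8* and *math-9* on the reverse strand. The reverse-strand run in *pals-22(jy3)* mutants had 839, 1040, 6296, 1974, 18, 317 and 66 reads over the 4 libraries, in that order of genes. In *pals-25(jy111)* mutants the same genes had 0, 0, 6, 0, 13, 535 and 14 reads. *math-8* was thus the leading gene of the run in *pals-25(jy111)* mutants, while *math-5* was in *pals-22(jy3)* mutants. Between *math-10* and *math-16*, the pseudogene *math-11* had 17 reads in *pals-22(jy3)* mutants and none elsewhere, and *math-13* had 2 reads in all libraries together.

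The difference between the 2 activated genotypes was tested directly. In *pals-22(jy3)* mutants against *pals-25(jy111)* mutants, 27 of 66 members tested were higher, 1 lower and 15 upregulated, where 7.47% of the 14847 genes tested were higher, 6.11% lower and 1.91% upregulated. All 15 upregulated members were math genes. Of the 27, 8 passed the filter through the *pals-22(jy3)* libraries alone, all of them math genes, and so had to differ. The median log2 fold change was 1.67 over 35 math genes tested, -0.49 over 31 bath genes tested and -0.07 over all genes. The math median includes the 8 genes that had to differ. In 27 members every *pals-22(jy3)* library lay above every *pals-25(jy111)* library, and in 1 every *pals-22(jy3)* library lay below, against 13.7% and 7.28% of all genes tested.

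Several members had no read in *pals-25(jy111)* mutants. *math-34*, *math-16*, *math-17* and *math-6* were without a read in all 4 libraries, and were at least 1258-fold, 239-fold, 296-fold and 562-fold higher in *pals-22(jy3)* mutants (adjusted p = 0.00123, 0.00167, 0.00123 and 0.00056). *math-5* had 0.0314, 0.0453, 0.0778 and 0.0805 CPM in *pals-25(jy111)* libraries and was higher in *pals-22(jy3)* mutants (log2 fold change 9.65, SE 0.43, adjusted p = 1.19e-05). *math-38* had 0.817, 0.499, 1.09 and 0.967 CPM in *pals-25(jy111)* libraries (log2 fold change 6.88, SE 0.34, adjusted p = 1.64e-05 in *pals-22(jy3)* against *pals-25(jy111)* mutants), and *math-14* had 0.754, 1.18, 1.28 and 1.01 CPM (log2 fold change 6.42, SE 0.37, adjusted p = 3.21e-05). All of these were separated in every library. The calls of *math-30*, *bath-40*, *bath-39* and *math-3* were each lost in at least 1 fit without a library (adjusted p up to 0.0977, 0.105, 0.0684 and 0.0586). The upregulated members further included *math-15* (5.39), *math-10* (6.24), *math-28* (5.58) and *math-44* (3.76).

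*math-49* was the member that went the other way. It was lower in *pals-22(jy3)* than in *pals-25(jy111)* mutants, without overlap (log2 fold change -0.96, SE 0.19, adjusted p = 0.0137), with the values given above. The call was lost without some libraries, with an adjusted p of 0.0524 without *pals-22(jy3)* library 2, 0.0501 without *pals-22(jy3)* library 4 and 0.0517 without *pals-25(jy111)* library 3. With the replicate block it was 0.003. *math-8* had a log2 fold change of -1.0 (adjusted p = 0.0619, and 0.00371 with the block) and *math-23* of -1.51 (0.14, and 0.00863 with the block). *bath-36* was higher in *pals-22(jy3)* mutants (log2 fold change 0.92, SE 0.11, adjusted p = 0.00138).

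With the block, 35 of 66 members were higher, 12 lower and 16 upregulated in *pals-22(jy3)* against *pals-25(jy111)* mutants. Of all genes tested, 18.3% were then higher, 29.2% lower and 2.01% upregulated, so that the lower members stayed under that share. Besides *math-8*, *math-23* and *math-49*, the lower ones were the bath genes *bath-2*, *bath-4*, *bath-5*, *bath-7*, *bath-27*, *bath-28*, *bath-29*, *bath-30* and *bath-41*, at log2 fold changes of -1.01 to -0.28 and adjusted p of 0.00475 to 0.0292. Without the block none of these 9 passed the test. The added higher members included *bath-47* (log2 fold change 2.44, adjusted p = 1.14e-05, against 0.0704 without the block), *math-26* (0.70, 0.000591, against 0.0731) and *math-4* (0.42, 0.00604, against 0.464). The others were *math-18* (0.0156), *math-21* (0.015), *math-35* (0.0196), *math-41* (0.00432) and *bath-44* (0.0369).

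**Figure D3:**
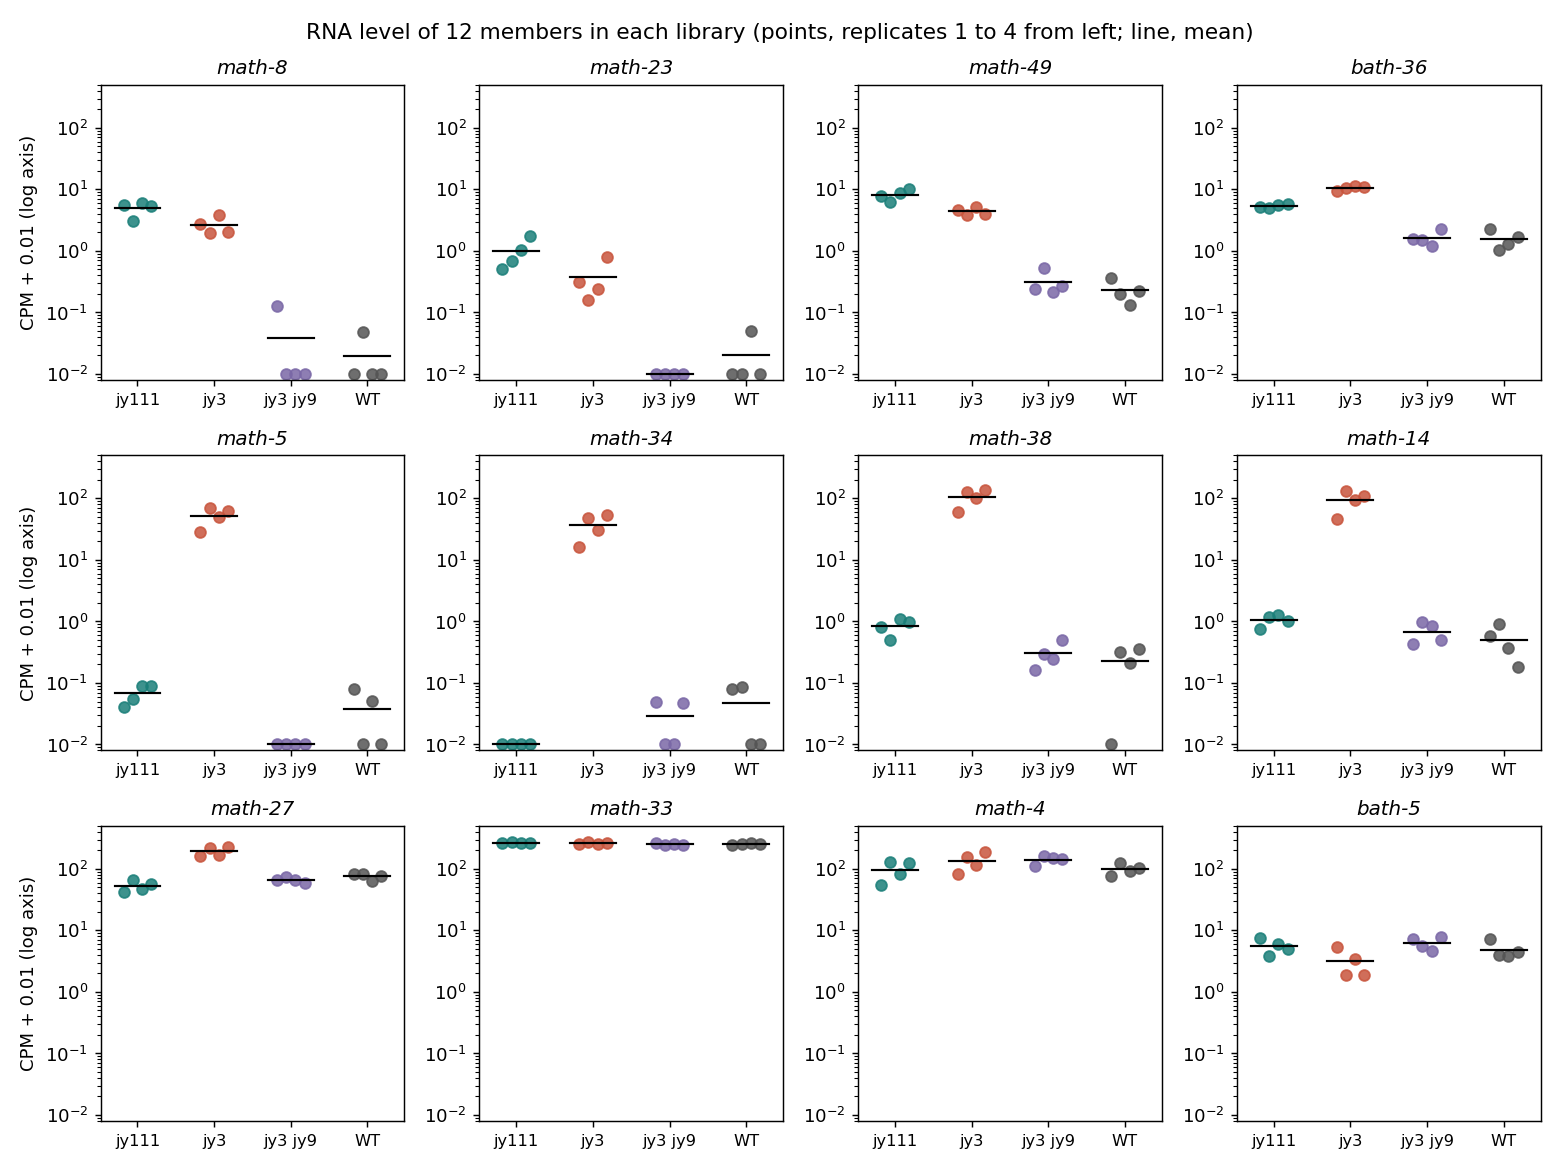
Level of 12 members in each library, in CPM + 0.01 on a log axis, with a bar at the mean of each genotype. *math-8*, *math-23* and *math-49* have their highest mean in *pals-25(jy111)* libraries, *math-5*, *math-34* and *math-38* are high in *pals-22(jy3)* libraries alone, and *math-33* is at 242 to 275 CPM throughout.

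To ask what the response needs of *pals-25*, *pals-22(jy3)* mutants were set against double mutants, and 30 of 66 members tested were higher, 4 lower and 23 upregulated. Of the 14878 genes tested, 11.3% were higher, 11.1% lower and 3.19% upregulated. Of 34 math genes tested, 27 were higher and 21 upregulated, with a median log2 fold change of 2.55, and of 32 bath genes tested 3 were higher and 4 lower, with a median of -0.70, beside -0.09 over all genes. Of the higher members, 11 passed the filter through the *pals-22(jy3)* libraries alone, all of them math genes, and so had to differ. The math counts and median include them and so were partly set by the filter. In 30 members every *pals-22(jy3)* library lay above every double-mutant library, and in 3 every *pals-22(jy3)* library lay below, against 16.1% and 10.8% of all genes tested. These 30 include the 11 that had to differ. Of the 6 body wall muscle markers, 2 were lower in *pals-22(jy3)* than in double mutants and the other 4 did not pass the test. Their sums were 7904 to 9535 CPM in *pals-22(jy3)* libraries and 8891 to 11353 CPM in double-mutant libraries. Of the 6 oocyte and adult markers 2 were higher in *pals-22(jy3)* mutants, as was 1 of the 5 intestine markers. The part of all these markers in the differences was not tested. This comparison shares its *pals-22(jy3)* libraries with the one against WT.

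The members that led in *pals-22(jy3)* mutants were at or near 0 in double mutants. *math-5*, *math-6* and *math-16* had no read in any double-mutant library, and were at least 1767-fold, 554-fold and 236-fold higher in *pals-22(jy3)* mutants (adjusted p = 0.000249, 0.000332 and 0.00107). *math-34* had 4418 reads in *pals-22(jy3)* mutants and 2 in double mutants, a ratio of 1860 with a 95% interval of 515 to 15364. *math-38* had 0.153, 0.286, 0.239 and 0.489 CPM in double-mutant libraries (log2 fold change 8.40, SE 0.40, adjusted p = 4.6e-06 in *pals-22(jy3)* against double mutants), and *math-14* had 0.422, 0.953, 0.819 and 0.489 CPM (log2 fold change 7.07, SE 0.42, adjusted p = 1.68e-05). For both, all *pals-22(jy3)* libraries exceeded all double-mutant libraries.

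The 3 members upregulated in *pals-25(jy111)* mutants were followed here as well. *math-8* had 0.115, 0, 0 and 0 CPM in double-mutant libraries, 317 reads in *pals-22(jy3)* mutants against 3, a ratio of 88.98 with a 95% interval of 30.2 to 434 (adjusted p = 0.000915). *math-49* had 0.23, 0.524, 0.205 and 0.263 CPM in double-mutant libraries and was higher in *pals-22(jy3)* mutants (log2 fold change 3.79, SE 0.33, adjusted p = 0.000148). *math-23* had no read in double-mutant libraries and 43 in *pals-22(jy3)* libraries, too few for the filter, a ratio of at least 12.1.

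The moderately changed members followed the same direction here. *math-27* had 66.9, 72.9, 67.2 and 59.4 CPM in double-mutant libraries and was higher in *pals-22(jy3)* mutants (log2 fold change 1.47, SE 0.12, adjusted p = 0.000102), and *math-20* had 17.7, 28.6, 27.9 and 21.5 CPM (log2 fold change 2.12, SE 0.20, adjusted p = 0.000261). *math-22*, *math-39*, *math-40* and *math-24* had log2 fold changes of 2.08, 2.47, 1.82 and 1.58, each called higher. The pseudogenes *math-50* (log2 fold change 2.62, SE 0.22, adjusted p = 0.000117) and *math-32* (log2 fold change 2.19, SE 0.22, adjusted p = 0.000322) were upregulated, and so were *bath-46* (2.11) and *bath-36* (2.64). *math-21* was higher (log2 fold change 1.35, SE 0.34, adjusted p = 0.0263), a call lost without *pals-22(jy3)* library 2 or 3 or double-mutant library 1 or 2 (adjusted p up to 0.0622). The *bath-40* call was lost without double-mutant library 2 (0.0526), and that of *math-26* (0.0267) without *pals-22(jy3)* library 2 or double-mutant library 1 or 4 (up to 0.068).

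The 4 lower members were *bath-7* (log2 fold change -1.24, SE 0.36, adjusted p = 0.0403), *bath-2* (log2 fold change -1.18, SE 0.35, adjusted p = 0.0467), *bath-1* (log2 fold change -0.95, SE 0.28, adjusted p = 0.0438) and *bath-28* (log2 fold change -1.27, SE 0.38, adjusted p = 0.0459), all named after their values were seen. *bath-28* had 2.38, 0.93, 1.65 and 0.952 CPM in *pals-22(jy3)* libraries and 3.15, 3.34, 2.42 and 4.85 CPM in double-mutant libraries, without overlap. These calls depended on single libraries. None of the 4 remained without *pals-22(jy3)* library 2, 3 or 4 or double-mutant library 1, 2 or 4, only *bath-7* did without double-mutant library 3, and 16 members were lower without *pals-22(jy3)* library 1, where 17.3% of all genes tested were.

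In double mutants against WT, the comparison that asks what is left when both genes are mutated, 2 of 53 members tested were higher, 2 lower and 0 upregulated. Of the 14551 genes tested, 2.61% were higher, 6.07% lower and 0.144% upregulated. DESeq2 and limma-voom also called 0 upregulated, and 15 members were higher and 6 lower at an unadjusted p under 0.05, against 12.8% and 15.3% of all genes tested. In 7 members every double-mutant library lay above every WT library, and in 5 every double-mutant library lay below, close to the 10.2% and 10.7% of all genes tested. Of the 6 body wall muscle markers, 3 were higher in double mutants, at sums of 8891 to 11353 CPM in double-mutant libraries and 7655 to 8398 CPM in WT libraries, and their part was not tested. The median log2 fold change was 0.36 over the members and 0.02 over all genes, and over all genes edgeR called 380 higher and 883 lower, DESeq2 1178 and 1551. The double-mutant libraries are also those of the comparison with *pals-22(jy3)* mutants.

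The largest of these differences was in *math-45* (chrII:1510287-1517454), which had 4.41, 5.39, 5.09 and 1.96 CPM in double-mutant libraries and 0.564, 1.38, 0.966 and 1.56 CPM in WT libraries (log2 fold change 1.84, SE 0.39, adjusted p = 0.0293). Every double-mutant library lay above every WT library. *math-50*, a pseudogene, had 0.384, 0.477, 0.41 and 0.376 CPM in double-mutant libraries and 0.845, 1.46, 0.845 and 0.607 CPM in WT libraries (log2 fold change -1.23, SE 0.30, adjusted p = 0.0448), and *math-32*, also a pseudogene, had 0.499, 0.524, 0.41 and 0.413 CPM in double-mutant libraries and 1.06, 0.73, 0.966 and 0.953 CPM in WT libraries (log2 fold change -1.03, SE 0.21, adjusted p = 0.0256). Both were lower in the double mutants than in WT, and higher in *pals-22(jy3)* mutants against WT (log2 fold change 1.40, adjusted p = 0.0109 for *math-50* and 1.17, 0.00553 for *math-32*). *bath-24*, named after its values were seen, was higher in double mutants (log2 fold change 0.97, SE 0.25, adjusted p = 0.0477). *math-50* and *bath-24* were each lost in every fit that left out 1 of the 8 libraries (adjusted p up to 0.101 and 0.123), and *math-45* and *math-32* in several (up to 0.0986 and 0.083).

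The bath genes of the chromosome II clusters differed between the libraries of a genotype. The 25 bath genes of the largest cluster and the clusters of 3 and 8 bath genes summed to 50.2, 24.2, 39.5 and 34.2 CPM in *pals-25(jy111)* libraries 1 to 4, 40.3, 15.8, 23.2 and 14.5 CPM in *pals-22(jy3)* libraries, 45.95, 43.9, 32.6 and 56.5 CPM in double-mutant libraries and 41.6, 24.6, 25.6 and 27.04 CPM in WT libraries. Library 1 was the highest of its group for *pals-25(jy111)*, *pals-22(jy3)* and WT animals, and library 4 for double mutants. Gene by gene, all 16 of these bath genes detected in *pals-22(jy3)* mutants were highest in library 1, as were 13 of 18 in *pals-25(jy111)* mutants and 14 of 18 in WT animals, while 15 of 19 in double mutants were highest in library 4.

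*bath-5* (chrII:2030753-2031952) had the highest level per length of these genes in WT, 4.78 ± 1.57 CPM per kb. It had 7.57, 3.81, 5.99 and 4.99 CPM in *pals-25(jy111)* libraries, 5.33, 1.89, 3.42 and 1.86 CPM in *pals-22(jy3)* libraries, 7.21, 5.53, 4.71 and 7.93 CPM in double-mutant libraries and 7.25, 3.96, 3.86 and 4.46 CPM in WT libraries. The groups overlapped between *pals-22(jy3)* mutants and WT, and the log2 fold change of -0.71 did not pass the test (adjusted p = 0.267).

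Markers of sperm put the libraries of *pals-25(jy111)*, *pals-22(jy3)* and WT animals in the same order as these bath sums, but not those of double mutants. The 6 sperm markers summed to 186, 50.96, 108 and 66.4 CPM in *pals-25(jy111)* libraries 1 to 4, 144, 34.2, 55.8 and 25.1 CPM in *pals-22(jy3)* libraries, 136, 75.5, 92.5 and 67.7 CPM in double-mutant libraries and 150.1, 51.1, 85.7 and 86.8 CPM in WT libraries, with none of the 6 at 0 in any group. Library 1 was highest in every genotype. In double mutants, library 4 had the highest bath sum and the lowest sperm sum of its group. Double-mutant library 3 had the lowest bath sum, with a sperm sum of 92.5 CPM that lay above those of libraries 2 and 4. The part of these markers in the bath differences was not tested, and in whole animals fewer cells of a type and less RNA per cell cannot be told apart.

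The summed level of the math genes of the largest cluster ran the other way. The 38 genes summed to 289, 498, 366 and 420.4 CPM in *pals-25(jy111)* libraries 1 to 4, 821, 1409, 1102 and 1403 CPM in *pals-22(jy3)* libraries, 389, 502, 474 and 399 CPM in double-mutant libraries and 388, 473, 398 and 426 CPM in WT libraries. Library 1 had the lowest sum of each group, and the lowest *pals-22(jy3)* library still had more than the highest library of any other genotype. Gene by gene, library 1 was lowest for 23 of 26 of these math genes detected in *pals-22(jy3)* mutants and 12 of 19 in *pals-25(jy111)* mutants. In double mutants it was lowest for 6 of 14 and library 4 for 7. In WT animals library 1 was lowest for 6 of 15 and highest for 4. The 5 intestine markers measured summed to 2551, 4432, 3349 and 4178 CPM in *pals-25(jy111)* libraries, 2865, 4957, 3938 and 5289 CPM in *pals-22(jy3)* libraries, 4033, 5467, 5260 and 5048 CPM in double-mutant libraries and 2984, 4323, 4350 and 3913 CPM in WT libraries, lowest in library 1 of each group. In *pals-22(jy3)* mutants against WT, 2 of these 5 markers were higher and 1 lower. Their part in the levels of the math genes was not tested.

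**Figure D4:**
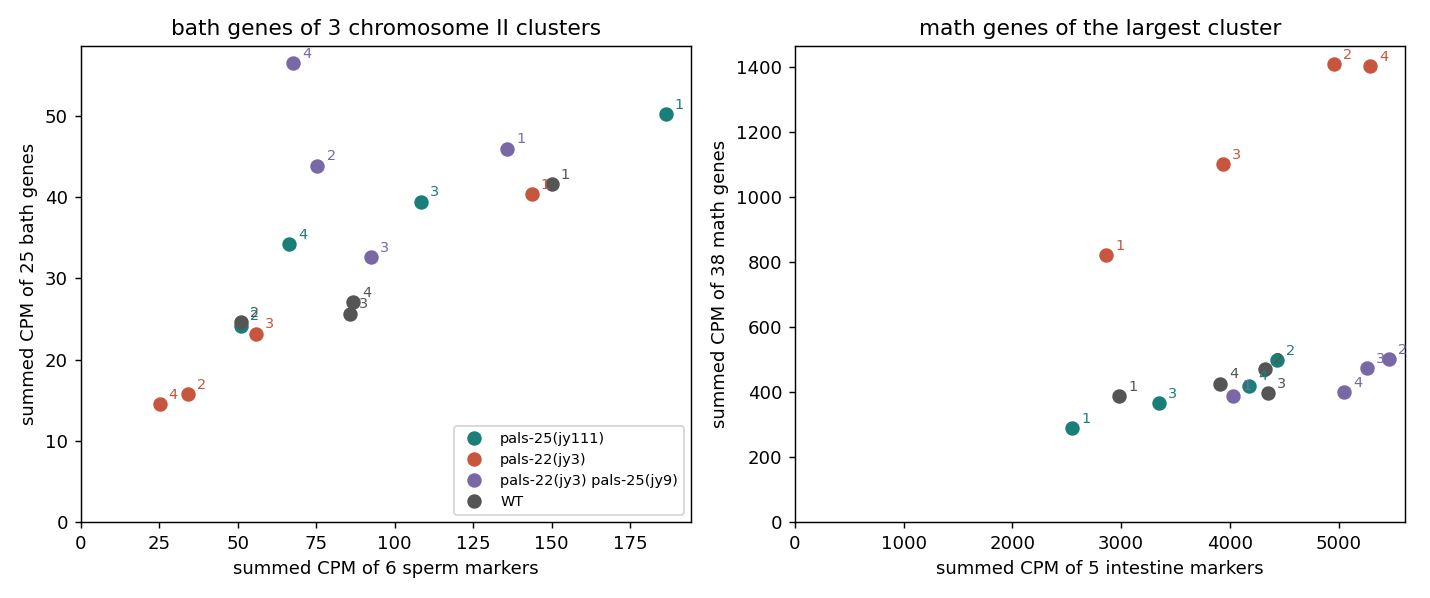
Left, summed CPM of the 25 bath genes of 3 chromosome II clusters against the summed CPM of 6 sperm markers, and right, summed CPM of the 38 math genes of the largest cluster against that of 5 intestine markers, with 1 point per library coloured by genotype. In the left panel library 1 lies at the right end of each genotype, and in the right panel the 4 *pals-22(jy3)* libraries, at 821 to 1409 CPM, lie above the other 12.

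Compared within replicate numbers, the tested bath genes of these clusters had median log2 differences between *pals-22(jy3)* and double-mutant libraries of -0.14, -1.06, -0.24 and -1.42 for numbers 1 to 4. Between *pals-22(jy3)* and WT libraries the medians were -0.11, -0.47, -0.05 and -0.66, and between double mutant and WT libraries they were 0.14, 0.68, 0.27 and 0.89. The differences that involve double mutants cannot be read as paired values. For number 4, deviations from group means correlated at only 0.074 between double-mutant and *pals-22(jy3)* libraries and -0.154 between double-mutant and WT libraries. Double-mutant library 4 also stood apart in its markers. With the number 1 libraries of both groups left out, an alternative chosen after seeing the data, *pals-22(jy3)* mutants had 35 members higher and 3 lower against WT, where 16.9% and 12.8% of all genes tested were. Against double mutants they had 33 and 13 (13.9% and 12.8% of all genes tested), and against *pals-25(jy111)* mutants 29 and 3 (10% and 5.82%). Against WT, the *pals-25(jy111)* mutants then had 4 higher and 0 lower (2.04% and 1.06%) and the double mutants 1 and 0 (1.86% and 3.89%).

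A list of 15 genes around the Cullin 3 ligase was followed, all of which were tested. It is made of the cullin, its RING protein, the adaptor MEL-26, the neddylation enzymes and the COP9 signalosome. Genes particular to Cullin 3 were not separated from those that act on other cullins too. In *pals-22(jy3)* mutants against WT, 9 were higher and the other 6 did not pass the test, where 9.97% of all genes tested were higher. The median log2 fold change was 0.44 beside -0.09 over all genes. The largest change was in *ula-1*, a subunit of the enzyme that activates the ubiquitin-like protein NED-8, with 104 ± 15.7 CPM in *pals-22(jy3)* mutants and 42.9 ± 1.81 CPM in WT animals (SD, n = 4 each; log2 fold change 1.18, SE 0.10, adjusted p = 0.000106). *mel-26*, itself a BTB-MATH gene without a bath symbol, had 44.9 ± 3.85 CPM in *pals-22(jy3)* mutants and 31.5 ± 1.97 CPM in WT animals (log2 fold change 0.41, SE 0.07, adjusted p = 0.00387). *cul-3* did not pass the test (log2 fold change -0.09, SE 0.06, adjusted p = 0.363). Outside the list, *cul-6* had 51.7 ± 10.8 CPM in *pals-22(jy3)* mutants and 7.21 ± 1.59 CPM in WT animals (SD). The paper counts CUL-6 among the parts of another cullin ligase regulated by *pals-22* and *pals-25*. In *pals-22(jy3)* against double mutants 9 were higher (median 0.45), beside 11.3% of all genes tested. In *pals-22(jy3)* against *pals-25(jy111)* mutants 6 were higher and 1, *ned-8*, lower (median 0.28), beside 7.47% and 6.11% of all genes tested. In *pals-25(jy111)* mutants against WT, *rbx-1* (log2 fold change 0.40, SE 0.05, adjusted p = 0.00402) and *ubc-12* (log2 fold change 0.33, SE 0.06, adjusted p = 0.0226) were higher, beside 2.33% of all genes tested. In double mutants against WT no gene of the list passed the test, at log2 fold changes of -0.26 to 0.07, where 2.61% of all genes tested were higher and 6.07% lower.

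Of the 92 members, 4 belong to the IPR list of 80 genes and 5 to the ORR list of 206 genes that the study used, with *math-38* and *math-14* in both. Since *pals-22* mutants were used in defining the IPR, its direction in them is not independent evidence. The IPR members *math-38*, *math-14*, *math-10* and *math-5* were all upregulated in *pals-22(jy3)* mutants against WT. None was called in *pals-25(jy111)* mutants against WT, where only *math-14* passed the filter (log2 fold change 1.07, adjusted p = 0.315). Of the 3 not tested there, *math-38* had 89 reads against 21, at 0.499 to 1.09 CPM against 0 to 0.347 CPM, without overlap. *math-10* had 15 reads against 2, a ratio of 6.33 with an exact interval of 1.47 to 57.1. *math-5* had 6 reads against 2, a ratio of 2.53 with an exact interval of 0.453 to 25.7. The ORR members outside the IPR list, *math-8*, *math-23* and *math-49*, were the 3 upregulated in *pals-25(jy111)* mutants. In *pals-22(jy3)* against *pals-25(jy111)* mutants, the 4 IPR members were all upregulated (log2 fold changes 6.24 to 9.65).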

How the data were processed

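Reads of 16 libraries of whole L4 animals were counted per gene. With Rsubread, the authors mapped read pairs to WS235, and they deposited featureCounts counts per gene, not normalized, in 1 combined table and in 16 files with identical values. Not given in the sources used here are versions, the strand setting and how reads matching several genes were treated. Members of a repeated family can share such reads, so counts of close copies are uncertain. A gene name table gave 73 of the 92 symbols and RefSeq locus tags gave 19. Positions and exon lengths are those of the Ensembl annotation of WBcel235.

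Members and lists were chosen with earlier results of these data known. Each comparison used its 8 libraries alone, with genes of at least 0.5 CPM in at least 4 libraries, TMM scaling, the quasi-likelihood test of edgeR without robust estimation, and Benjamini-Hochberg adjustment over all genes tested (edgeR 4.0.16 in R 4.3.3, with DESeq2 1.42.0 and limma 3.58.1 for alternatives). Upregulated means an adjusted p under 0.05 and a log2 fold change above 2. Depth ran from 14028579 to 34151410 counts, and intervals are exact Clopper-Pearson intervals at 95% that cover counting error only. The tests were also run on simulated counts without replicate effects, in which only genes above a count limit were changed. That run does not check the calls of members with hardly a read in a group. No 2 replicates agreed within sampling noise (chi-square per gene at least 11.5).

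Named members follow a rule. It takes those upregulated or downregulated in *pals-25(jy111)* mutants, the 15 largest changes among those upregulated in *pals-22(jy3)* mutants against WT, the 5 most negative called in either comparison with WT, the 4 highest per kb in WT, the 3 largest called changes in double mutants, the 3 most negative called in *pals-22(jy3)* against *pals-25(jy111)* mutants, *math-33*, *bath-42* and the members on the IPR or ORR list. Others were named after their values were seen. *bath-43* was not analysed here, nor was any genome sequence.

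Same-numbered libraries deviated together by more than 0.1 in correlation in 3 comparisons. The correlations of their deviations from group means were 0.806, 0.643, 0.117 and 0.284 for numbers 1 to 4 in *pals-25(jy111)* mutants and WT, 0.804, 0.611, 0.118 and 0.271 in *pals-22(jy3)* mutants and WT, and 0.868, 0.679, 0.409 and 0.657 in *pals-22(jy3)* mutants and *pals-25(jy111)* mutants. Other numbers correlated as well or better for number 3 in *pals-25(jy111)* mutants and WT (0.266), and for number 4 in *pals-25(jy111)* mutants and WT (0.58), in *pals-22(jy3)* mutants and WT (0.693) and in the comparison of both single mutants (0.657). The pairing is taken from this check, since no label says what a number shares. Alternatives were limma-voom, DESeq2, filterByExpr, no low-count filter, 1 fit over 16 libraries, the replicate block, a prior count of 2 and each library left out in turn.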

Additional observations from a re-analysis of the deposited data

Results flagged for a closer look

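In *pals-25(jy111)* mutants, *math-15* had 0.691 CPM in library 1, while the other 3 libraries had 1.22 to 1.33 CPM. The gap was 0.836 of the range of the group, above Dixon's 95% limit for 4 samples. It was the only value to stand apart among 75 groups of a named member and a genotype, of which chance would give about 1 in 20.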

How the results depend on the processing

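No result reversed under any alternative. The counts of members higher and upregulated stayed within 1.5 times in *pals-25(jy111)* mutants against WT and in all comparisons of *pals-22(jy3)* mutants, and the alternatives moved mainly the small counts of lower members. In *pals-25(jy111)* mutants against WT, 2 were lower by DESeq2, 2 in 1 fit over 16 libraries and 2 with the replicate block, against 0. In *pals-22(jy3)* mutants against WT, the block gave 4 lower and leaving out the number 1 libraries 3, against 0. In *pals-22(jy3)* against double mutants, the lower count of 4 became 7 by DESeq2, 8 in 1 fit over 16 libraries, 0 without a filter, 0 with the block and 13 without the number 1 libraries. In *pals-22(jy3)* against *pals-25(jy111)* mutants the lower count of 1 became 2 by DESeq2, 12 with the block and 3 without the number 1 libraries. In double mutants against WT, the 2 higher became 6 by DESeq2 and 1 by limma-voom, without a filter, in 1 fit over 16 libraries and without the number 1 libraries. There the 2 lower became 1 by limma-voom, 0 without a filter, 1 with the block and 0 without the number 1 libraries. The cause was not tested.

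With each library left out in turn, members higher, lower and upregulated ranged from 3 to 4, 0 to 1 and 2 to 4 in *pals-25(jy111)* mutants against WT, from 27 to 37, 0 to 4 and 19 to 20 in *pals-22(jy3)* mutants against WT, and from 28 to 35, 0 to 16 and 22 to 24 in *pals-22(jy3)* against double mutants. They ranged from 0 to 1, 0 to 2 and 0 to 1 in double mutants against WT, and from 23 to 31, 0 to 5 and 14 to 17 in *pals-22(jy3)* against *pals-25(jy111)* mutants. In the 2 comparisons with double mutants the replicate numbers did not all reach the correlation of 0.1 set as the minimum for pairing. The correlations for numbers 1 to 4 were 0.399, 0.413, 0.209 and 0.074 with *pals-22(jy3)* mutants and 0.269, 0.404, 0.267 and -0.154 with WT. Not every library correlated best with its own number, here as in the comparisons of single mutants with WT. There the block gave 30 higher (11.6% of all genes tested) and 0 lower (10.9%) in *pals-22(jy3)* against double mutants, all 30 of them higher without it. In double mutants against WT it gave 2 higher (3.77%) and 1 lower (6.30%), and the genes changed. *bath-47* (0.0281) and *math-4* (0.0234) became higher, the calls of *math-45* (0.0604), *bath-24* (0.0559) and *math-32* (0.0542) were lost, and *math-50* (0.0472) remained (adjusted p in parentheses). Apart from the calls given with the block above, it changed no other call of a member in the 3 comparisons taken as paired. Over all genes, the split of higher and lower calls in *pals-22(jy3)* mutants against WT was 1476 to 1675 by edgeR, 2283 to 1677 by DESeq2 and 1836 to 1046 without a filter.

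Depth limits the members with hardly a read. A gene without a read in a group is known only to lie under 3 counts over that group, and 37 of 92 members in *pals-25(jy111)* mutants against WT and 29 in *pals-22(jy3)* mutants against WT had too few reads to be tested.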

Other observations

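The 19 members annotated as pseudogenes were not silent as a group. In *pals-22(jy3)* mutants against WT, 10 were tested, of which 5 were higher and 2 upregulated, where 9.97% and 3.10% of all genes tested were. In *pals-22(jy3)* against double mutants, 11 were tested and 5 were higher, 4 of them upregulated (11.3% and 3.19% of all genes tested). Among the higher ones, *math-17* and *math-30* in both comparisons and *math-50* against double mutants passed the filter through the *pals-22(jy3)* libraries alone. The pseudogene *math-27* was at 194 ± 32.7 CPM in *pals-22(jy3)* mutants and 77.04 ± 8.66 CPM in WT animals (SD, n = 4 each), among the most abundant members of the family.

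Among the 13 members outside chromosome II, 9 were tested in *pals-22(jy3)* mutants against WT and 2 were higher, *math-46* on chromosome I and *bath-36* on chromosome V, beside 9.97% of all genes tested. Of these, *math-46* passed the filter through the *pals-22(jy3)* libraries alone. In *pals-25(jy111)* mutants against WT, *bath-36* alone of 8 tested was higher, beside 2.33% of all genes tested.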
